A study of Mus musculus with 15 samples.

Results

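The 8 genes described here encode transcription factors of the endocrine lineage: Neurog3, Neurod1, Pax4, Pax6, Isl1, Nkx2-2, Nkx6-3 and Insm1. They were chosen by name and not by their values, and all 8 were found among the 44788 gene symbols listed. RNA-seq was carried out on whole stomachs of C57BL/6 mice at 15 time points, with 1 library per time point. The libraries fell into an embryonic window (E12.5 to E18.5, 1 library per day, n = 7), a suckling window (postnatal days D1, D3 and D5 and weeks W1 and W2, n = 5) and a weaned window (W3, W6 and W8, n = 3). These windows were set here from the ages in the labels and named for the usual age of weaning, which the labels do not record. No group carried a treatment or an engineered allele. Stomachs older than W2 came from male mice, whereas sex was not separated at younger ages, so effects of age and of sex on the weaned window cannot be told apart.

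Gastric endocrine cells arise from the epithelium and secrete hormones such as ghrelin, gastrin and somatostatin. In the classical scheme, Notch signalling keeps most epithelial cells out of this fate, Neurog3 is switched on briefly in progenitors, and factors such as Neurod1, Pax4, Pax6, Nkx2-2, Insm1 and Isl1 act as the cells mature. Neurog3 and Neurod1 are basic helix-loop-helix proteins, which bind the E-box. Nkx6-3 is a homeobox factor of the distal stomach, needed for a normal balance of gastrin and somatostatin cells. Several of these factors also act outside the endocrine lineage. Isl1 is used in pyloric mesenchyme and neurons, Insm1 in neural progenitors, and Pax6 in the eye.

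Levels were given as FPKM, fragments scaled to the length of the gene and to the mapped fragments of the library, with the lower and upper bounds that the authors' quantification gave. With no second library at any age, those bounds cover counting error only. A spread over libraries of a window therefore includes the change with age within it. In whole-organ RNA, fewer cells of a type and less RNA per cell cannot be told apart.

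The stretches upstream of Neurog3, Neurod1 and Nkx2-2 are shown because these are the members whose mean level was highest in the suckling window, apart from Pax6, and because E-boxes are the sites that the first of them bind. RefSeq promoter windows (GRCm38.p6, 250 bases before to 50 after the gene start) were matched by symbol for 5 of the 8 members. The 130 bases furthest upstream, from base -250 to base -121, are printed 5′ to 3′ on the strand of the gene, and capitals mark the E-box CANNTG, which reads the same on both strands. The Neurog3 stretch lies at chr10:62132840-62132969 on the plus strand, the Neurod1 stretch at chr2:79456757-79456886 on the minus strand and the Nkx2-2 stretch at chr2:147186523-147186652 on the minus strand.
Neurog3: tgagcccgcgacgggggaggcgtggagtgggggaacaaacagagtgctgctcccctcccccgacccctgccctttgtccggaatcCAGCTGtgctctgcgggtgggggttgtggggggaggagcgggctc
Neurod1: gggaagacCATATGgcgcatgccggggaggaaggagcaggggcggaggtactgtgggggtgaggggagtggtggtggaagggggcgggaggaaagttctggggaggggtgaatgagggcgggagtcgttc
Nkx2-2: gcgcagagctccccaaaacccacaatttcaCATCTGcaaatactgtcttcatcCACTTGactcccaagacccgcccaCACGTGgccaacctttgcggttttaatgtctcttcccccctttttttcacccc

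The Neurog3 window held 1 E-box, which starts at base -165, and the Neurod1 window held 1, which starts at base -242. The Nkx2-2 window held 3, at bases -220, -197 and -173. Of 32851 promoter windows of the same length, 72.3% held at least 1 E-box and 17.6% held 3 or more. The N-box, the site of Hes repressors that act below Notch, was searched as CACNAG and its reverse complement CTNGTG. It was not found in the Neurog3 window, was found once in each of the Neurod1 and Nkx2-2 windows, and occurred in 42.5% of all windows. No E-box overlapped an N-box in these windows. The Nkx2-2 start used by the table lies inside the span that the files give for the gene. These matches describe letters only.

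Isl1 was the member with the highest FPKM in 12 of the 15 libraries, and Nkx6-3 and Insm1 were also above 1 FPKM throughout. The other 5 members were low. Neurog3 reached 1 FPKM in 2 libraries, Pax6 in 1, and Neurod1, Nkx2-2 and Pax4 in none. The plot of the 8 members by time point shows the pattern of each.

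**Figure D1:**
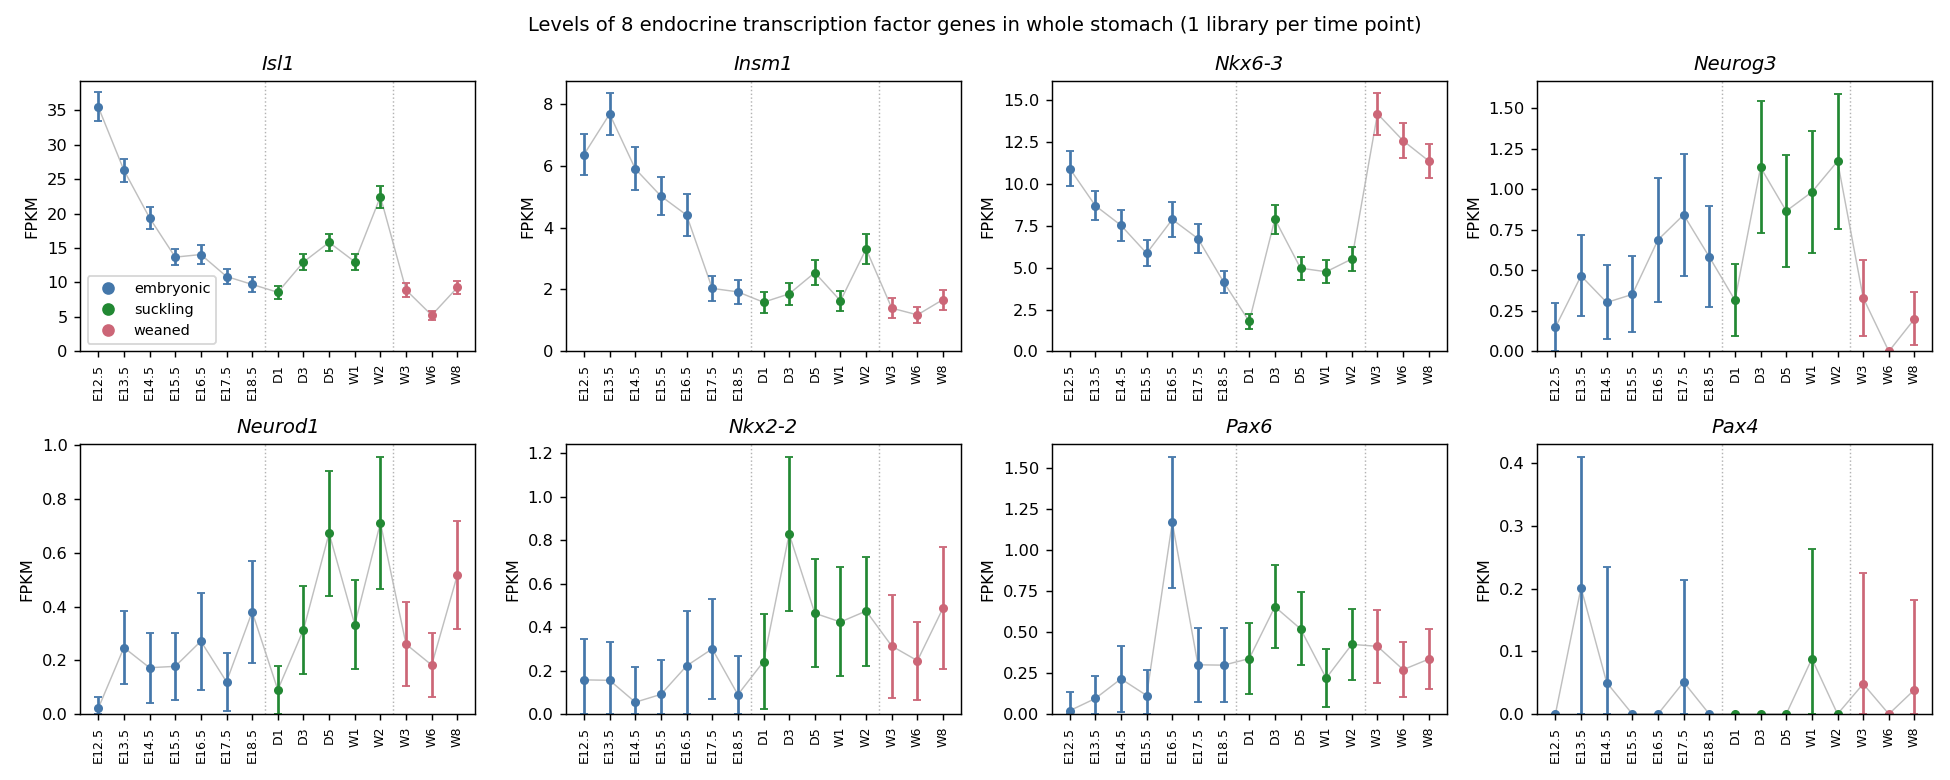
FPKM (vertical axis, linear, a different range in each panel) of each gene at the 15 time points in order of age (horizontal axis, not to scale in time), 1 library each. Bars are the bounds of the authors' quantification and cover counting error only, and dotted lines part the embryonic, suckling and weaned windows. Isl1 and Insm1 were highest at E12.5 and E13.5, Nkx6-3 was highest at W3 and lowest at D1, Neurog3 was highest at D3 and W2, and Pax6 stood at 1.17 at E16.5.

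Neurog3 (chr10:62133090-62134763, plus strand) encodes the factor that commits progenitors to the endocrine fate. Its FPKM in the 7 embryonic libraries was 0.148 at the lowest (E12.5), 0.466 at the median and 0.842 at the highest (E17.5). In the suckling window it was 0.315 at D1, 1.13 at D3, 0.865 at D5, 0.982 at W1 and 1.17 at W2. In the weaned window it was 0.330 at W3, listed at 0 at W6 and 0.200 at W8. Suckling libraries from D3 onward were thus all above every embryonic and weaned library in FPKM, whereas D1 lay among the embryonic values and below W3. The bounds of D5 (0.519 to 1.21) and E17.5 (0.465 to 1.22) overlapped, however, so these libraries are not said to differ. The window means were 0.483 ± 0.239 (SD, n = 7), 0.894 ± 0.346 (SD, n = 5) and 0.177 ± 0.166 (SD, n = 3). These values rest on few fragments, estimated from the bounds as 4 to 20 per embryonic library, 8 to 31.9 per suckling library and 0 to 8 per weaned library. At W6, 3 fragments would have given 0.0957 FPKM.

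The fall of Neurog3 after weaning passed the main test, but the call was kept in 13 alternatives and lost in 14. Neurog3 was 0.67 lower on the log2(FPKM + 1) scale in the weaned than in the suckling libraries (log2 difference -0.67, SE 0.18, limma, adjusted p = 0.00773). It was 1 of the 2 members called among 5 tested in this comparison, in which 31.4% of all 16902 genes tested were called, 28.9% lower and 2.57% higher. The median gene itself was 0.42 lower on this scale (median log2 difference -0.42), and median-ratio scaling raised that median by 0.39. After median-ratio scaling, when 7.95% of genes were called lower and 12.2% higher, the Neurog3 difference was -0.61 with an adjusted p of 0.0201, above the threshold of 0.01. The call was also lost when W6, the library listed at 0, was left out (-0.56, adjusted p = 0.053), or when D1, E15.5, D3 and E16.5, a choice made after genes of other organs had been seen in them, were left out (-0.78, adjusted p = 0.0193). An exact two-sided permutation test of Neurog3 alone gave p = 0.0357, where 0.0179 is the smallest p that 5 against 3 libraries allow.

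Between the embryonic and the suckling window Neurog3 was not called (log2 difference 0.35, SE 0.15, limma adjusted p = 0.0525). Without D1, the lowest suckling library, the difference was 0.47 and was called (limma adjusted p = 0.00817). Leaving out that library widens the difference, and this was the 1 alternative with a call, against 26 without. In this comparison 0 of the 5 members tested were called, against 41.4% of all genes, 10.8% higher and 30.6% lower, and 3 of them had an unadjusted limma p under 0.05 (Insm1, Neurog3 and Nkx6-3). By exact permutation tests 1 of the 5, Insm1, had a p under 0.05 (p = 0.0341). Within the embryonic window the slope of Neurog3 was 0.09 per day on the log2(FPKM + 1) scale (SE 0.03, adjusted p = 0.0309) and was not called. Relative to the geometric mean of 10 epithelial marker genes, Neurog3 stood at 0.359% to 0.819% in embryonic libraries, 0.785% to 0.866% from D3 to W2, 0.268% at D1 and 0 to 0.240% after weaning. The embryonic value of 0.819%, at E13.5, lay among those from D3 to W2.

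Neurod1 (chr2:79452641-79456636, minus strand), a direct target of Neurog3 in the classical scheme, was under 1 FPKM in every library and was left out of the main test. Its embryonic FPKM was 0.0212 at the lowest, 0.178 at the median and 0.381 at the highest. In the suckling window it was 0.0903 at D1, 0.314 at D3, 0.673 at D5, 0.333 at W1 and 0.712 at W2, and after weaning it was 0.260 at W3, 0.182 at W6 and 0.517 at W8. The highest values were at D5 and W2, but the windows overlapped, and exact two-sided permutation tests gave p = 0.0808 from embryonic to suckling and p = 0.589 from suckling to weaned. The gene lies within Cerkl on the same strand, which did not exceed 0.426 FPKM.

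Nkx2-2 (chr2:147177546-147195041, minus strand), a homeobox factor needed for the specification of several endocrine cell types, was higher in the suckling than in the embryonic libraries. Its embryonic FPKM was 0.0545 at the lowest, 0.155 at the median and 0.300 at the highest. In the suckling window it was 0.242 at D1, 0.829 at D3, 0.464 at D5, 0.424 at W1 and 0.474 at W2. Only D1 fell within the embryonic range. An exact two-sided permutation test gave p = 0.00253, unadjusted, 1 of 16 such tests on the members, and the smallest p that 7 against 5 libraries allow is 0.00126. Nkx2-2 missed the filter of the main test. When all genes with any signal were tested, its difference was 0.36 (SE 0.08, limma adjusted p = 0.00527), with 22.5% of 28775 genes called, 5.66% higher. After weaning it was 0.313, 0.246 and 0.488 at W3, W6 and W8, within the suckling range, and the exact test against the suckling libraries gave p = 0.393. Its levels rest on at most 21.6 fragments per library. The antisense transcripts Nkx2-2os and 6430503K07Rik overlap it, at up to 0.0343 and 0.308 FPKM, and the sources used here do not say that strand was used in counting.

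Pax4 (chr6:28442334-28449340, minus strand), a paired-box factor of early beta and delta cell precursors in the pancreas, was at or near the detection limit. It was listed at 0 in 9 of the 15 libraries and reached its highest value, 0.202 FPKM, at E13.5. The lower bound was 0 in every library, so no level could be told from 0 at this depth.

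Pax6 (chr2:105667512-105697364, plus strand), a paired-box factor of hormone-producing cells and of the eye, was low in 14 libraries and stood apart in 1. Its FPKM in the embryonic libraries was 0.0206, 0.0949, 0.215 and 0.113 from E12.5 to E15.5, 1.17 at E16.5, and 0.300 and 0.298 at E17.5 and E18.5. The suckling values were 0.338, 0.654, 0.519, 0.219 and 0.425 in order of age, and after weaning 0.413, 0.271 and 0.335. Pax6 passed the filter through E16.5 alone. The E16.5 library was also the one in which lens and retina genes stood out. Of an eye marker list of 13 genes, assembled after these values were seen, the 12 other than Cryab, which muscle also makes, summed to 82.3 FPKM at E16.5 and to 0.852 to 2.93 FPKM in the other 14 libraries. At E16.5 none of those 12 was at 0, whereas 5 to 9 were at 0 in each of the others. The lens crystallin Cryaa was at 35.8 FPKM and Cryba1 at 25.2 FPKM at E16.5. With Cryab kept, the list summed to 6.38 to 126 FPKM in the embryonic, 56.6 to 94.0 in the suckling and 30.3 to 83.2 in the weaned libraries. The gene whose log2(FPKM + 1) followed Pax6 most closely over the 15 time points was the crystallin Cryba2 (Pearson r = 0.909). Next came LOC102633229 (0.770) and 1700066B19Rik (0.768), and all 3 were highest at E16.5. Cryba2 was at 4.67 FPKM at E16.5, but also at 1.25 at D3 and 0.948 at W2, where Cryaa was at 0. The part of eye tissue in the E16.5 value was not tested. Pax6 was not called in any comparison with all libraries, and with E16.5 left out it missed the filter.

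**Figure D2:**
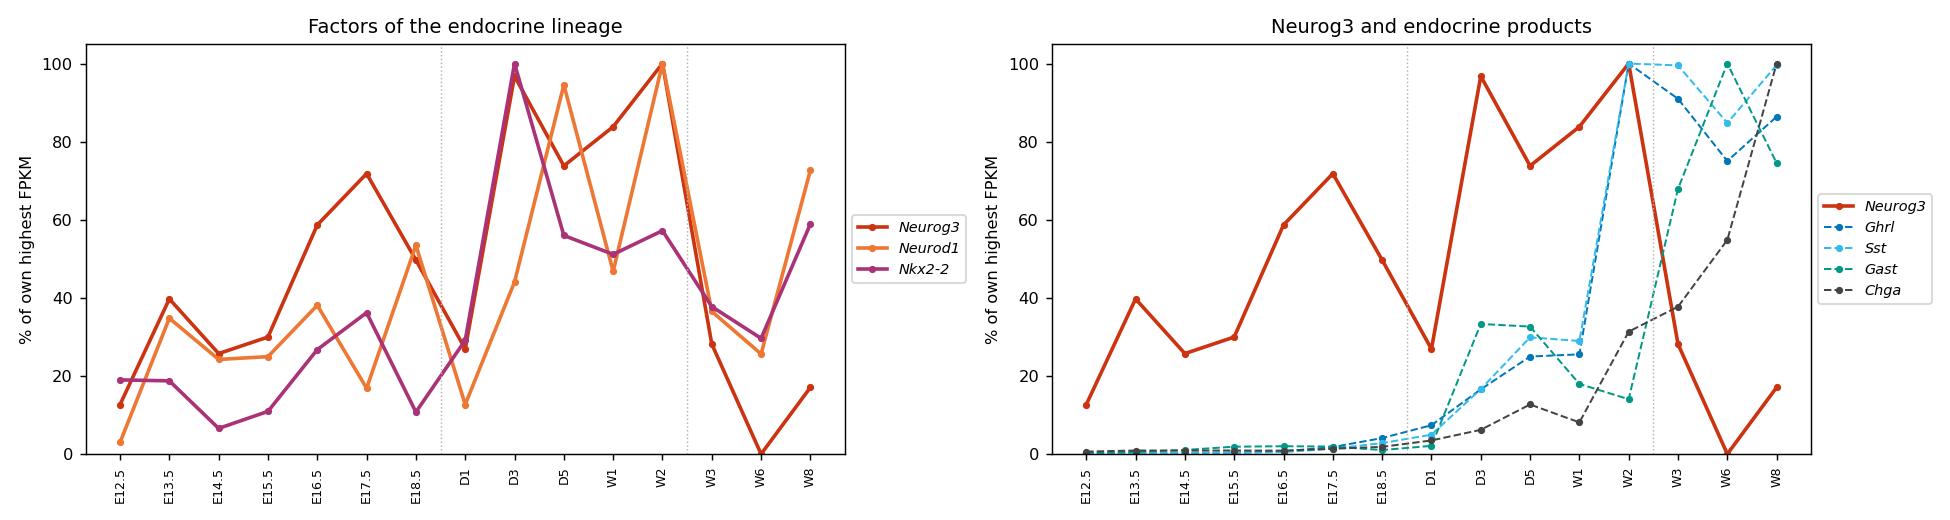
Left, Neurog3, Neurod1 and Nkx2-2, and right, Neurog3 with the hormone genes Ghrl, Sst and Gast and the granule gene Chga, each as % of its own highest FPKM (vertical axis) at the 15 time points (horizontal axis), 1 library each. Neurog3 stood between 73.8% and 100% of its highest level from D3 to W2 and at 28.2% or less from W3, while Ghrl and Sst were at 75% or more from W2 to W8.

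Of 13 measured genes of gastric hormones and amine synthesis, 7 rose from the embryonic to the suckling window and 0 fell (median log2 difference 0.71, against -0.22 over all genes, of which 10.8% rose). Ghrl, which encodes ghrelin, went from 4.16 FPKM at E12.5 to 208 at D1 and 2820 at W2, and was between 2116 and 2565 after weaning. Sst, which encodes somatostatin, was at 2.84 FPKM at E12.5, 1040 at W2 and 882 to 1036 after weaning. Gast, which encodes gastrin, was at 10.9 FPKM at D1, 173 at D3, 72.9 at W2 and 519 at W6. Pyy, which encodes peptide YY, was highest at D3 with 58.8 FPKM. From suckling to weaned 3 of the 13 rose and 1 fell, where 2.57% of all genes rose and 28.9% fell, and the differences of Ghrl (1.81), Sst (2.0), Gast (2.46) and Pyy (-1.64) did not pass the test.

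Of 15 measured genes of the secretory granule, 13 rose and 0 fell from embryonic to suckling (median log2 difference 0.76), where 10.8% of all genes rose. From suckling to weaned 3 rose and 1 fell, where 2.57% of all genes rose and 28.9% fell. Chga, which encodes chromogranin A, was at 3.36 FPKM at E12.5, 167 at W2 and 532 at W8, and rose in both comparisons (log2 differences 2.99 and 2.64, limma adjusted p = 0.000179 and 0.00154). Chgb was at 1.46 FPKM at E12.5 and 40.2 at W8. Ptprn2, a granule membrane protein, rose from embryonic to suckling by 2.06 (adjusted p = 0.00259). Cpe, a prohormone-processing carboxypeptidase, rose by 0.69 and then fell by 0.92 on the log2 scale. The 3 weaned libraries were above all the others in Chga, at 201, 292 and 532 FPKM.

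Notch signalling acts upstream of Neurog3 in the classical scheme. The list held Notch ligands and receptors, Rbpj and Hes and Hey genes, and whether each acts upstream was not tested. Of 12 measured, 8 fell and 0 rose from embryonic to suckling (median -0.70, against -0.22 over all genes, of which 30.6% fell), and 6 fell and 0 rose from suckling to weaned (median -0.90, against -0.42 over all genes, of which 28.9% fell). With median-ratio scaling, when 14.6% and 7.95% of all genes were called lower in these steps, the numbers that fell were 5 and 2. Hes1, the repressor through which Notch acts on Neurog3, was between 47.7 FPKM at W8 and 93.0 at W2 and was not called in either comparison. Notch2 fell by 1.01 and by 1.19 on the log2 scale, and Rbpj, the DNA-binding partner of Notch, by 0.64 and by 0.84. Hes6 fell by 0.57 from embryonic to suckling, and its difference from suckling to weaned was -0.15 (limma adjusted p = 0.384).

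Insm1 (chr2:146221997-146225020, plus strand) encodes a zinc-finger factor of endocrine and neural progenitors. Its embryonic FPKM was 6.36, 7.67, 5.89, 5.01, 4.40, 2.03 and 1.92 in order of age. The suckling values were 1.59, 1.86, 2.54, 1.63 and 3.31, and after weaning 1.39, 1.18 and 1.67. The 5 libraries from E12.5 to E16.5 were thus above all the others in FPKM, and the value at E16.5 was 2.16 times that at E17.5. The bounds of E16.5 (3.74 to 5.07) and W2 (2.83 to 3.79) overlapped. W2 was the highest of the postnatal libraries.

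Insm1 fell with embryonic day by 0.26 per day on the log2(FPKM + 1) scale (SE 0.04, limma adjusted p = 0.00178). It was 1 of the 2 members called among 5 tested, both lower, where 39.8% of 16799 genes were called, 25% lower and 14.8% higher. Without E18.5 the slope was -0.25 with an adjusted p of 0.0141. Insm1 was also called across the 3 windows (limma F test, adjusted p = 0.00518), 1 of 2 members among 5, where 67.9% of all genes were called. That call was lost in 6 of 14 alternatives, among them median-ratio scaling (adjusted p = 0.0737) and no filter (adjusted p = 0.0124), and without W3, W6 or any 1 of the libraries from E12.5 to E15.5 (limma adjusted p = 0.0108 to 0.0162). From embryonic to suckling its difference was -0.78 (SE 0.26, adjusted p = 0.0191), which missed the threshold. That difference was called when E17.5 (-0.92, limma adjusted p = 0.00491) or E18.5 (-0.92, limma adjusted p = 0.00343), whose levels lay near the suckling ones, was left out. Leaving out such libraries widens the difference. Over all alternatives it was called in 4 and not called in 24.

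Isl1 (chr13:116298257-116309719, minus strand) encodes a LIM homeobox factor of endocrine cells, neurons and pyloric mesenchyme. Its embryonic FPKM was 35.5, 26.3, 19.4, 13.7, 14.1, 10.9 and 9.71 in order of age. In the suckling window it was 8.57 at D1, 13.0 at D3, 15.8 at D5, 13.0 at W1 and 22.4 at W2, and after weaning 8.90 at W3, 5.25 at W6 and 9.27 at W8. The bounds of 11 of the 14 pairs of neighbouring ages did not overlap, which covers counting error only. The fall over embryonic days was followed by higher values up to W2, which was 2.52 times W3.

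Isl1 fell by 0.29 per embryonic day (SE 0.03, limma adjusted p = 0.000287), and by 0.26 with median-ratio scaling. It stayed called with each embryonic library left out in turn. It was not called from embryonic to suckling (-0.26, SE 0.30, adjusted p = 0.474), where median-ratio scaling gave 0.016, nor from suckling to weaned (-0.79, SE 0.38, adjusted p = 0.0876). The windows overlapped in both steps.

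Isl1 and Insm1 are also used by mesenchymal and neural cells. Of 7 markers of antral and pyloric mesenchyme, 4 fell with embryonic day and 1, Sox9, rose (median -0.30 per day, against -0.03 over all genes, of which 25% fell). Six2 fell from 83.4 FPKM at E12.5 to 14.0 at E18.5, and Nkx2-5, a pyloric factor, from 29.3 to 0.169. Barx1, a stomach mesenchyme factor, fell by 0.30 per day. The list summed to 184 to 611 FPKM in the embryonic, 146 to 272 in the suckling and 54.7 to 128 in the weaned libraries. From embryonic to suckling 0 of the 7 were called, where 41.4% of all genes were.

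Of 17 markers of enteric neurons and glia, 4 fell and 1 rose with embryonic day (median -0.13 per day), and 6 fell and 3 rose from embryonic to suckling. Over all genes 25% and 30.6% fell in these comparisons, so the counts of this list were near the background. From suckling to weaned 13 fell and 0 rose (8 and 0 with median-ratio scaling), where 28.9% of all genes fell (7.95% with that scaling). Hand2 fell by 0.21 per day, whereas the slopes of Uchl1 (-0.08), Tubb3 (-0.19) and Stmn2 (-0.06) were not called. The list summed to 233 to 438 FPKM in the embryonic, 170 to 287 in the suckling and 53.4 to 111 in the weaned libraries. The part of mesenchymal or neural cells in the levels of Isl1 and Insm1 was not tested.

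**Figure D3:**
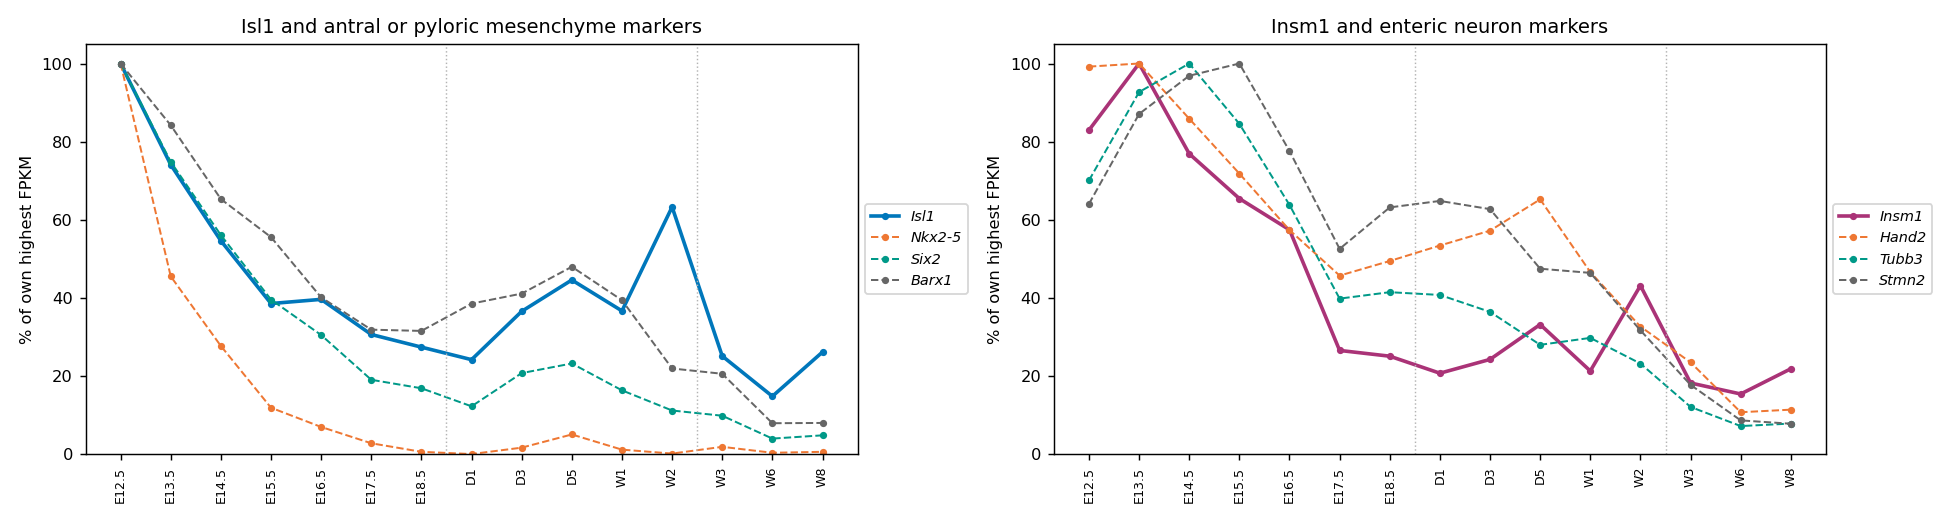
Isl1 with 3 markers of antral and pyloric mesenchyme (left) and Insm1 with 3 markers of enteric neurons (right), each as % of its own highest FPKM (vertical axis) at the 15 time points (horizontal axis), 1 library each. Isl1 and Six2 were both at 100% at E12.5, and Isl1 stood at 63.3% at W2, where Six2 was at 11.2%.

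By Pearson correlation of log2(FPKM + 1) over the 15 time points, the genes nearest to Isl1 were Arid3b (0.951), Nr2f2 (0.950) and Adam11 (0.946), which were all highest at E12.5 and lowest at W6, like Isl1. Those nearest to Insm1 were Phf21b (0.971), Acss3 (0.960) and Cd83 (0.958), and those nearest to Neurog3 were Noxo1 (0.913), Arsj (0.903) and Slc1a5 (0.885), all lowest at W6. Among the members, Isl1 and Insm1 had the highest r with each other (0.845), whereas that of Neurog3 with Insm1 was -0.07. These values share libraries and a trend with age and are given as a description.

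Nkx6-3 (chr8:23153271-23158948, plus strand) was the member that was highest after weaning. Its embryonic FPKM was 10.9, 8.70, 7.53, 5.86, 7.88, 6.73 and 4.14 in order of age. After birth it was 1.79 at D1, 7.90 at D3, 4.97 at D5, 4.75 at W1 and 5.52 at W2, and after weaning 14.2 at W3, 12.6 at W6 and 11.4 at W8. Every weaned library was above every suckling and every embryonic library in FPKM. The bounds of W8 (10.37 to 12.37) and E12.5 (9.88 to 11.95) overlapped, however, so these libraries are not said to differ. Relative to the geometric mean of the 10 epithelial markers, Nkx6-3 was highest at E12.5 (33.9%) and E13.5 (15.3%), above the 9.95% to 10.3% of the weaned libraries, which were above the 1.52% to 5.96% of the suckling ones. D1 was the lowest library, and the levels at E18.5 and D3 were 2.32 and 4.42 times that at D1.

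The rise of Nkx6-3 from suckling to weaned was 1.28 on the log2(FPKM + 1) scale (SE 0.31, limma adjusted p = 0.00407), in a comparison where 2.57% of genes were called higher and the median gene was 0.42 lower. With median-ratio scaling it was 1.83 (adjusted p = 0.000583). The exact two-sided permutation test gave p = 0.0179, the smallest that these numbers of libraries allow. The call was lost without W3 (1.21, adjusted p = 0.0149), W6 (1.29, adjusted p = 0.0204) or W8 (1.36, adjusted p = 0.0112), or without the 4 libraries that held genes of other organs (1.17, adjusted p = 0.0155), while the size stayed close to that with all libraries. Nkx6-3 was also called across the 3 windows (limma F test, adjusted p = 0.00507), a call lost with a pseudocount of 0.01 (adjusted p = 0.0103), without a filter (adjusted p = 0.012), and without W3 (0.0207), W6 (0.0169) or W8 (0.0116). It was not called from embryonic to suckling (-0.54, SE 0.25, adjusted p = 0.0728). Its slope over embryonic days was -0.15 per day (SE 0.04, adjusted p = 0.0109), just above the threshold, and without E16.5 it was -0.16 and called (adjusted p = 0.00782).

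Pdx1, a homeobox factor of the antrum, pylorus, duodenum and pancreas, was the gene nearest to Nkx6-3 over the 15 time points (Pearson r = 0.953), followed by Dynll2 (0.854) and Tpmt (0.840). Pdx1 was at 0.835 FPKM at D1, 3.01 at D3, 2.38 at W2 and 5.24 at W3, and rose from suckling to weaned (0.89, limma adjusted p = 0.00525). Nkx6-2, a close relative of Nkx6-3 named after its values were seen, was also lowest at D1 with 2.45 FPKM and rose from suckling to weaned (1.20, adjusted p = 0.0039). These were the 2 genes called higher there among 14 measured endocrine transcription factors other than the members, of which 5 fell. Gast, a product of antral cells, was not at its lowest at D1. It was at 5.32 FPKM at E18.5, 10.9 at D1 and 173 at D3. Its highest embryonic level was 10.4 FPKM, at E16.5, so D1 was above every embryonic library in FPKM.

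**Figure D4:**
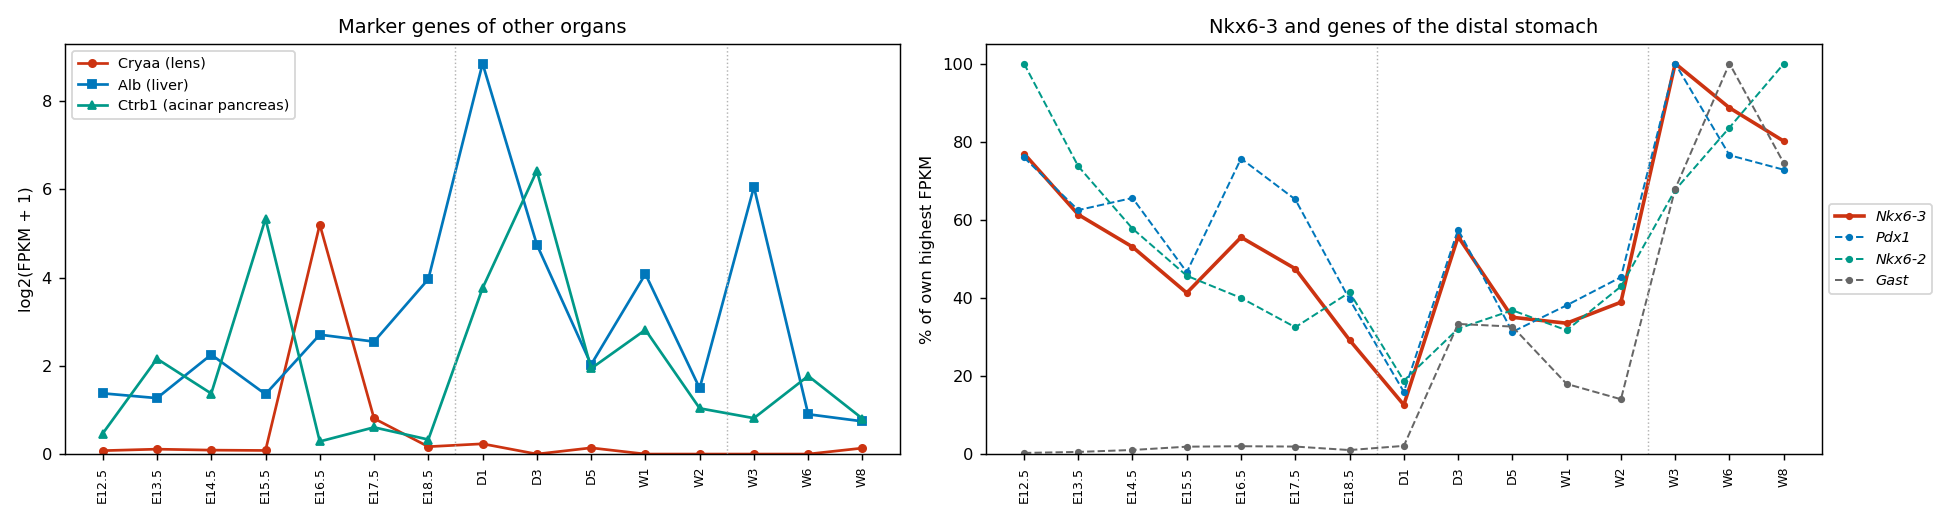
Left, log2(FPKM + 1) of the lens gene Cryaa, the liver gene Alb and the acinar pancreas gene Ctrb1 (vertical axis), and right, Nkx6-3, Pdx1, Nkx6-2 and Gast as % of their own highest FPKM (vertical axis), at the 15 time points (horizontal axis), 1 library each. Cryaa stood apart at E16.5, Alb at D1 and Ctrb1 at E15.5 and D3, and Nkx6-3, Pdx1 and Nkx6-2 were all at their lowest at D1.

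The D1 library also held genes of the liver. Alb was at 461 FPKM at D1 and the list of 8 liver markers, without Apoa1, summed to 966 FPKM there, against 67.3 to 161 in the other suckling, 103 to 244 in the weaned and 19.4 to 126 in the embryonic libraries. The second highest sum, 244 FPKM, was at W3, where Nkx6-3 was highest, and Alb was at 65.4 FPKM there. All 8 liver markers were at 1 FPKM or more at D1 and at D3. Its summed level with Apoa1 was 34.3 to 255 in the embryonic, 263 to 1365 in the suckling and 1503 to 2404 FPKM in the weaned libraries, of which Apoa1 gave up to 2270. The part of liver RNA in the D1 level was not tested.

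Of 14 measured endocrine transcription factors other than the members, 0 rose and 5 fell from embryonic to suckling (median -0.58), where 30.6% of all genes fell. From suckling to weaned 2 rose and 5 fell (median -0.34, against -0.42 over all genes), where 28.9% of all genes fell, and with median-ratio scaling 2 rose and 2 fell. With embryonic day 0 rose and 6 fell (median -0.11 per day), where 25% of all genes fell. Sox4, a progenitor factor, fell by 0.24 per embryonic day and by 1.74 from suckling to weaned. Foxa1 and Foxa2, factors of the whole foregut epithelium, were not called in any of them.

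**Figure D5:**
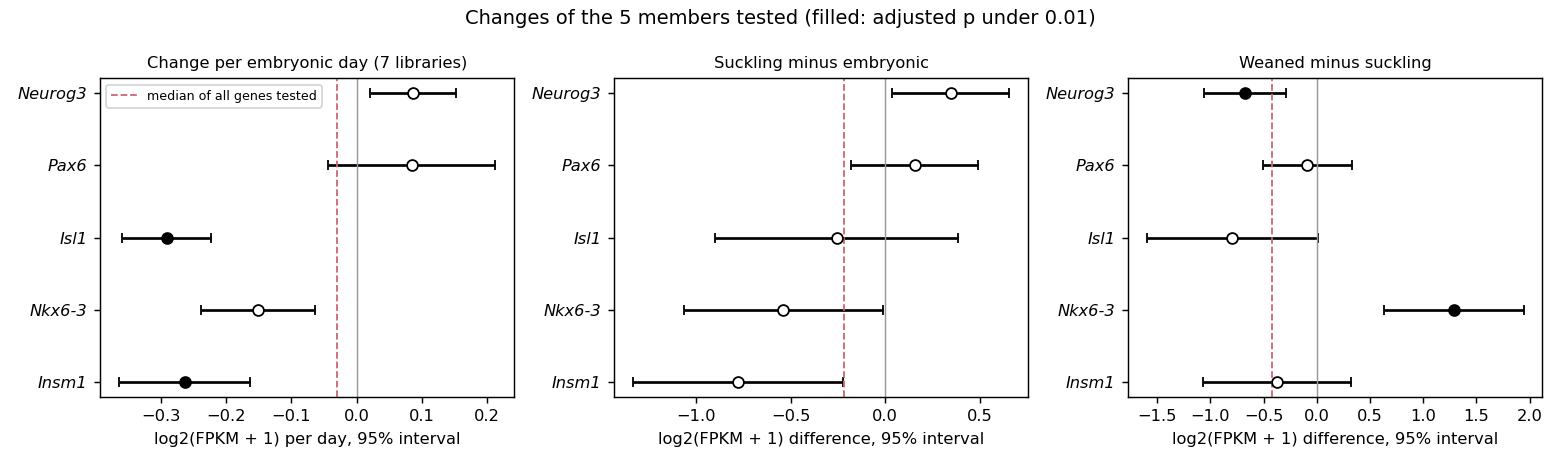
Log2(FPKM + 1) change per embryonic day (left), from the embryonic to the suckling window (middle) and from the suckling to the weaned window (right) for the 5 members tested, with 95% intervals of limma. Filled circles passed an adjusted p of 0.01 and the dashed line is the median of all genes tested, at -0.03, -0.22 and -0.42. Isl1 and Insm1 were called lower with embryonic day, and after weaning Neurog3 was called lower and Nkx6-3 higher. The Neurog3 call was kept in 13 alternatives and lost in 14.

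By the relative depth estimated from the bounds, the shallowest library was E16.5 at 0.714 times E12.5 (about 10.6 M fragments in gene entries) and the deepest W6 at 1.17 times (about 17.0 M), and the 10 highest genes took 11.2% to 53.2% of the summed FPKM, most in the weaned libraries. Stomach markers were present throughout, with the list of 10 summing to 756 FPKM or more in every library. By maximal FPKM, Tff1 and Gkn2 were its highest members, both at W6. At E12.5 the mesenchyme gene Barx1 gave 472 of the summed 768 FPKM, with Tff1 at 153 and Gkn2 at 40.9. Of 10 epithelial markers, 7 rose and 0 fell with embryonic day, where 14.8% of all genes rose and 25% fell. Krt19, Krt8, Krt18 and Cldn18 were all called. Pancreas markers summed to 58.9 FPKM at E15.5 and 160 at D3 and to 28.2 or less elsewhere, led by the acinar gene Ctrb1 with 39.3 and 84.5 FPKM, while the insulin genes Ins1 and Ins2 stayed at or under 0.355 FPKM in every library. The part of pancreatic tissue in the D3 levels of Neurog3, Nkx2-2 and Pax6 was not tested. Of 5 measured intestine markers, 2 rose and 0 fell from embryonic to suckling, where 10.8% of all genes rose and 30.6% fell.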

How the data were processed

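RNA-seq of whole C57BL/6 mouse stomach was analysed, with 1 library per time point. The authors deposited FPKM values per gene with lower and upper bounds. Their methods name FastQC, HISAT2 and StringTie on GRCm38.p2, the submitters' processing notes name Bowtie (0.12.2) and FastQC, and the layout of the tables is that of Cufflinks, so the exact route to the values is not settled. The methods name liver as the RNA source where the labels name stomach, and all 10 stomach markers reached 1 FPKM in every library. Fragment counts were not used here as data. Fragments behind a value were estimated from the bounds as if these were Poisson limits.

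Entries of 1 symbol were summed. log2(FPKM + 1) was fitted, for the 16902 genes reaching 1 FPKM in some library, with limma (3.58.1) in R (4.3.3), with the libraries of an age window as its replicates and Benjamini-Hochberg adjustment over all genes tested (threshold 0.01). All 3 windows shared 1 fit, and the slope per embryonic day was fitted to the 7 embryonic libraries (16799 genes). The pseudocount of 1 understates the changes of low genes. Of the 8 members, 5 passed the filter and 3 (Neurod1, Pax4 and Nkx2-2) did not. The p-values measure the spread between ages within a window, and no animal-level replicate exists. Exact two-sided permutation tests of log2(FPKM + 1) were run for each member in both window steps, 16 in all and unadjusted (SciPy 1.17.1). The code was tested on simulated data.

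All members are named, and of each list up to 4 genes with the highest maximal FPKM and, for each member passing the filter, the 3 nearest genes by Pearson correlation. Genes outside that rule are marked as chosen later, or stand beside a count. The members and lists were chosen with earlier results of these data known. Alternatives covered the pseudocount, the filter, scaling, the study's own phases, moderation and the libraries left out. A few genes of the lists are not reported here.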

Additional observations from a re-analysis of the deposited data

Results flagged for a closer look

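In each of 16 groups, the embryonic and the suckling libraries of each member, the highest and the lowest library were compared with the others by the gap to the nearest one over the whole range. In this rule, 3 groups stood apart. Chance marks about 1 group in 20 where values are normally distributed. That rate does not hold for groups with values at 0, so the 3 are not set against it. Pax6 at E16.5 was at 1.17 FPKM, against 0.300 in the next embryonic library (gap over range 0.756), in the library that also held lens and retina genes. Pax4 at E13.5 was at 0.202 FPKM, against 0.0511 (gap over range 0.747), with a lower bound of 0. Pax4 at W1 was at 0.0882 FPKM while the other suckling libraries were listed at 0. Any value above 0 gives a gap over range of 1 in such a group, so this flag carries no weight.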

How the results depend on the processing

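No paired analysis was possible because the labels give no replicate numbers and each age has 1 library. Of 5 members tested, 2 were called across the 3 windows, 0 from embryonic to suckling, 2 from suckling to weaned and 2 with embryonic day. Across the windows 1 was called with a pseudocount of 0.01, without a filter, with median-ratio scaling, with a fixed sum without the 10 highest genes, with quantile normalization or with a one-way test on untransformed FPKM, and 4 with the study's protein phases. The 1 called was Nkx6-3 with the 3 scalings and the one-way test, Insm1 with the pseudocount and Nkx2-2, which the main filter leaves out, without a filter. Of all genes, 67.9% were called across the windows in the main test, 57.7% with median-ratio scaling and 40.8% without a filter. Shares for the other alternatives, the protein phases among them, are not given, so their counts cannot be set against all genes. From embryonic to suckling 1 was called without a filter, where 22.5% of all genes were, with a maximal FPKM of at least 0.5, or with the RNA or the protein phases. The study drew its RNA phases by clustering these same libraries, so calls with that grouping are not independent of it. From suckling to weaned 1 was called with a pseudocount of 0.01, without a filter, with a maximal FPKM of at least 2 (3 members tested), with median-ratio scaling, with the fixed sum or with quantile normalization, and 0 without the 4 libraries holding genes of other organs. Leaving out 1 library at a time gave 0 to 3, 0 to 1, 0 to 2 and 1 to 3 calls in the 4 comparisons. Where 1 library leaves the weaned window, 2 remain. Signs turned for differences that were not called: Isl1 from embryonic to suckling with median-ratio scaling (0.016), and from suckling to weaned Pax6 with median-ratio scaling (0.080) and quantile normalization (0.35) and Insm1 with quantile normalization (0.21). Of 358 alternative values of single members, these 4 included, 327 kept direction and side of the threshold, 19 lost the call, 14 of them that of Neurog3 after weaning, and 8 gained one. The cause was not tested. Depth limits Neurog3, Neurod1, Nkx2-2, Pax6 and Pax4, which rest on at most 34.0 fragments per library.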
